A study of Rattus norvegicus with 12 samples.

Results

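Among the piRNAs counted in regenerating rat liver, 3 names, rno_piR_001338, rno_piR_033824 and rno_piR_019160, are described here for their levels at 168h after partial hepatectomy. They were chosen by name, out of 701 piRNA names listed over all libraries, because their read counts at 168h were higher than in sham-operated liver. The values at 168h and in the sham group that made that choice are therefore given as a description, with no test. Every library was made from liver of the inbred rat strain Fischer-344. The pre_PH group held 6 libraries of normal, sham-operated liver, and the other groups held 2 libraries each, taken 24, 48 or 168 hours after partial hepatectomy, an operation that takes out a portion of the liver. The labels gave no age and did not tie libraries to individual animals, and each p-value is thus set by the variation among the libraries at hand, possibly technical variation only. The files count piRNAs alone, so the labelled tissue could not be checked against marker genes.

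PIWI-interacting RNAs are small RNAs bound by PIWI proteins. In the germ line they guide these proteins to matching transcripts, above all those of transposable elements, which are then silenced. After partial hepatectomy the remaining hepatocytes, otherwise quiescent, divide and the lost mass is regrown over about a week, so 24h and 48h fall in the growth phase and 168h near its end.

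Library totals ran from 20741811 to 31467460 reads, of which 120844 to 351818 were reads of listed piRNAs. The 48h libraries stood apart in the number of names they listed, 328 and 446, against 128 to 216 in the other 10. A count of 0 allows up to 3 reads, or 0.0953 to 0.145 RPM (reads of a piRNA per 1000000 reads of the library). Such limits and the 95% Wilson intervals given for single libraries cover counting error only.

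The 3 piRNAs differed widely in read number and were followed on different footings. By reads, rno_piR_019160 ranked between the 13th and 27th name of its library and was listed in all 12 libraries with 157 to 1129 reads. Also listed in all 12, rno_piR_033824 ranked 29th to 46th with 22 to 116 reads. The rarest, rno_piR_001338, was listed in 10 libraries with 1 to 24 reads, at ranks 48 to 153. All 3 passed the filter on low counts, which left 80 piRNAs. Without the 48h and 168h libraries rno_piR_001338 did not pass it, so it entered the tests through the groups where it was high, whereas the other 2 passed on the pre_PH libraries alone.

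In the sham group rno_piR_019160 had 157 to 529 reads, with a median of 428.5. The 24h libraries had 224 and 166 reads, the 48h libraries 302 and 286, and the 168h libraries 1129 and 1108. No library outside 168h had more than 529 reads of it. The 24h and 48h counts all lay inside the sham range, with both 48h libraries above both 24h libraries.

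On the RPM scale, the level of rno_piR_019160 was 14.1 ± 5.79 RPM (SD, n = 6) in pre_PH, 7.46 ± 0.292 (n = 2) at 24h, 11.8 ± 3.87 (n = 2) at 48h and 38.4 ± 2.79 (n = 2) at 168h. The 168h libraries, at 36.4 RPM (95% Wilson interval 34.3 to 38.6) and 40.3 RPM (38.03 to 42.8), both lay above the highest sham library, at 18.9 RPM (17.3 to 20.5). Of the 80 piRNAs that passed the count filter, 12.5% had both 168h libraries above all sham libraries on this scale. The 168h mean was 2.71 times that of pre_PH. In bulk liver RNA, a change in the number of cells that hold a small RNA and a change in its amount per cell cannot be told apart. The sham libraries themselves fell into a wide range, from 5.59 and 8.02 RPM in replicates 3 and 4 to between 16.3 and 18.9 in the other 4. Both 24h libraries, at 7.66 and 7.25 RPM, lay inside that range.

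For rno_piR_033824 the sham libraries had 22 to 42 reads, with a median of 29.5. There were 23 and 22 reads at 24h, 37 and 89 at 48h, and 116 and 70 at 168h. The highest counts were thus in 168h replicate 1 and 48h replicate 2, and the 48h and 168h groups overlapped in reads. In RPM of library reads the level was 1.17 ± 0.293 (SD, n = 6) in pre_PH, 0.874 ± 0.123 (n = 2) at 24h, 2.31 ± 0.739 (n = 2) at 48h and 3.14 ± 0.842 (n = 2) at 168h. The lower 168h library, at 2.55 RPM (95% Wilson interval 2.02 to 3.22), was below the higher 48h library at 2.83 RPM (2.30 to 3.48). Both 48h libraries lay above the highest sham library at 1.46 RPM, as they did for 40% of the 80 piRNAs, and both 24h libraries lay inside the sham range. The 168h and 48h means were 2.69 and 1.97 times the pre_PH mean.

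Of rno_piR_001338 the sham libraries held 10 reads in all: 0 in replicates 1 and 2, 1 in replicates 3 and 5, 2 in replicate 6 and 6 in replicate 4. The 24h libraries had 4 and 6 reads, the 48h libraries 21 and 24, and the 168h libraries 12 and 16. Its highest counts were therefore at 48h and not at 168h. In RPM of library reads it stood at 0.0641 ± 0.0916 (SD, n = 6) in pre_PH, 0.199 ± 0.0885 (n = 2) at 24h, 0.888 ± 0.177 (n = 2) at 48h and 0.485 ± 0.138 (n = 2) at 168h. Both 48h libraries, at 1.01 RPM (95% Wilson interval 0.662 to 1.55) and 0.763 RPM (0.513 to 1.13), were above both 168h libraries, at 0.387 RPM (0.221 to 0.676) and 0.583 RPM (0.359 to 0.946), although the intervals of the nearer pair overlap widely. Both times lay above the highest sham library, replicate 4 at 0.243 RPM (0.111 to 0.530). Of the 80 piRNAs, 40% had both 48h libraries above all sham libraries in RPM, and 12.5% had both 168h libraries above them. The 24h replicate 2 also lay above sham replicate 4, at 0.262 RPM (0.120 to 0.572), but both held 6 reads and their intervals overlap almost wholly.

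**Figure D1:**
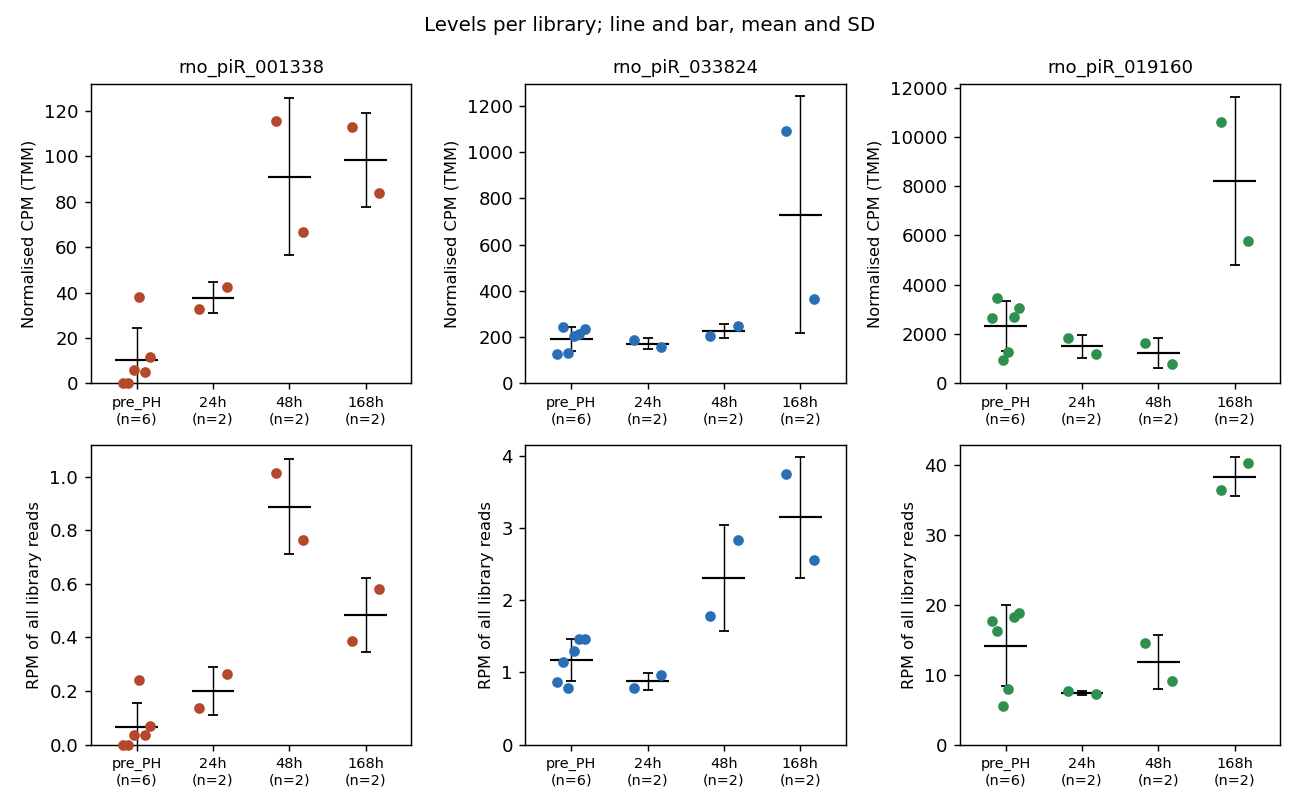
Level of each of the 3 piRNAs in every library, by group, as normalised CPM (upper row, per 1000000 of the TMM-scaled piRNA total) and as RPM of all library reads (lower row); points are libraries, lines and bars the mean and SD, with bars stopped at 0. In both rows the 168h points of rno_piR_019160 and rno_piR_033824 lie above all sham points, while for rno_piR_001338 the 48h and 168h points overlap in the upper row and the 48h points are higher in the lower.

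A second scale, normalised CPM (counts per 1000000), relates each count to the other piRNAs of its library, since it divides by the total of listed piRNA reads scaled with edgeR's TMM factors. On that scale rno_piR_019160 ran from 930 to 3464 CPM in pre_PH (median 2669), with 1839 and 1175 at 24h, 1659 and 794 at 48h, and 10612 and 5795 at 168h. For rno_piR_033824 the sham range was 128 to 244 CPM (median 209), with 189 and 156 at 24h, 203 and 247 at 48h, and 1090.3 and 366 at 168h. For rno_piR_001338 it was 0 to 38.1 CPM (median 5.52), with 32.8 and 42.5 at 24h, 115 and 66.6 at 48h, and 113 and 83.7 at 168h. For rno_piR_019160 and rno_piR_033824 the 2 libraries at 168h thus lay further apart in normalised CPM than in RPM. Their TMM factors were 0.842 and 1.302.

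The order of the groups differed between the 3 piRNAs. By mean normalised CPM, rno_piR_019160 ran 168h, pre_PH, 24h, 48h, at 8204 ± 3406, 2340 ± 1014, 1507 ± 470 and 1226 ± 612. That of rno_piR_033824 ran 168h, 48h, pre_PH, 24h, at 728 ± 512, 225 ± 30.9, 193 ± 51.2 and 172 ± 23.4. That of rno_piR_001338 ran 168h, 48h, 24h, pre_PH, at 98.2 ± 20.6, 91.0 ± 34.5, 37.7 ± 6.81 and 10.1 ± 14.4 (SD, n = 6 in pre_PH and 2 at each time). Below the 168h level, neighbouring groups of rno_piR_019160 and of rno_piR_033824 did not differ beyond their spread. For rno_piR_001338 the 48h and 168h libraries overlapped on this scale.

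Over the 168h comparison that chose them, the log2 fold changes against pre_PH were 3.17 ± 0.86 (SE) for rno_piR_001338, 1.91 ± 0.53 for rno_piR_033824 and 1.81 ± 0.52 for rno_piR_019160, with a median of 0.33 over all 80 tested. Of the 80, 6.25% were called higher in that comparison (5 piRNAs) at an edgeR quasi-likelihood Benjamini-Hochberg adjusted p under 0.05, and these 3 are among them by construction. The last of them inside that threshold was rno_piR_019160. Just outside lay rno_piR_009544, at 6.93 ± 14.3 CPM in pre_PH (n = 6) and 76.8 ± 64.2 at 168h (n = 2). The other 2 inside were rno_piR_005567, at 26979 ± 12332 CPM in pre_PH and 182115 ± 193759 at 168h, and rno_piR_002302, at 152 ± 39.0 and 574 ± 212. The 3 piRNAs together made up 0.0512 to 0.389% of piRNA reads in the sham libraries, 0.106 and 0.205% at 24h, 0.159 and 0.298% at 48h, and 0.994 and 0.813% at 168h, with rno_piR_019160 the largest part in every library.

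At 24h none of the 3 passed the test against pre_PH. That comparison shares its sham libraries with the one that chose the 3 piRNAs, and the 168h libraries also entered the count filter, scaling and dispersion of the joint fit. In it 2.5% of the 80 piRNAs tested were called (2 piRNAs, 9 at an unadjusted p under 0.05; DESeq2 called 4). The log2 fold change of rno_piR_019160 was -0.63 ± 0.59 (SE, 95% interval -1.86 to 0.59, edgeR adjusted p = 0.727). The value for rno_piR_033824 was -0.16 ± 0.59 (interval -1.38 to 1.06, edgeR adjusted p = 0.933). For rno_piR_001338 it was 1.82 ± 0.98 (interval -0.21 to 3.85, edgeR adjusted p = 0.525), resting on 10 reads in each group, and only 3 of the 80 had a larger one. All 3 intervals reach beyond a 2-fold change in at least 1 direction, so changes of that size were not resolved with these libraries.

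At 48h, rno_piR_001338 was higher in both libraries than in all 6 sham libraries, as were 40% of the 80 piRNAs in RPM. Neither rno_piR_033824 nor rno_piR_019160 passed the test. The sham libraries, with 10 reads of rno_piR_001338 in all, are those that served to choose it, and it was tested only because of its reads at 48h and 168h. Its values at 48h are therefore a description, and its adjusted p is no independent evidence of a rise. Its log2 fold change against pre_PH was 3.05 ± 0.84 (SE, edgeR adjusted p = 0.00515), from 10.1 ± 14.4 CPM (SD, n = 6) to 91.0 ± 34.5 (n = 2). In that comparison 33.8% of the 80 tested were called higher, and 46.2% in either direction, so 1 of 3 is near the background, and 14 of the 80 had a larger fold change. When a library was left out and the count filter applied again, the adjusted p rose above 0.05 without 24h replicate 2 (log2 fold change 2.10, edgeR adjusted p = 0.0649), 48h replicate 1 (1.68, adjusted p = 0.242) and 168h replicate 1 (1.84, adjusted p = 0.0997), fits in which 101, 88 and 108 piRNAs were tested. With the same 80 piRNAs tested throughout, the edgeR adjusted p ran from 0.00074 to 0.0344 over the libraries left out in turn.

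The sham libraries served to choose rno_piR_033824 and rno_piR_019160 too, so none of their adjusted p-values at 48h is independent of that choice. The log2 fold change of rno_piR_033824 at 48h was 0.23 ± 0.56 (SE, 95% interval -0.94 to 1.39, edgeR adjusted p = 0.765). In normalised CPM, 1 of 2 libraries was above the sham range. Scaled to the authors' library totals, where both libraries are above the range, it was 0.98 ± 0.43 and did not pass either (edgeR adjusted p = 0.0700). For rno_piR_019160 the change at 48h was -0.93 ± 0.60 (interval -2.18 to 0.31, edgeR adjusted p = 0.211), with 1 of 2 libraries below the sham range in normalised CPM and none in RPM. It was called lower without pre_PH replicate 6 (-1.33, edgeR adjusted p = 0.0490), which left the same 80 piRNAs tested. With the count filter applied again, so that 101, 88 and 108 piRNAs were tested, it was also called lower without 24h replicate 2 (-1.89, adjusted p = 0.0277), 48h replicate 1 (-2.48, adjusted p = 0.0265) or 168h replicate 1 (-2.12, adjusted p = 0.00779). With the same 80 tested, none of those 3 fits called it, at -0.84 (edgeR adjusted p = 0.179), -1.26 (adjusted p = 0.127) and -1.33 (adjusted p = 0.0754). Scaled to library totals its value was -0.26 ± 0.49 (edgeR adjusted p = 0.722).

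**Figure D2:**
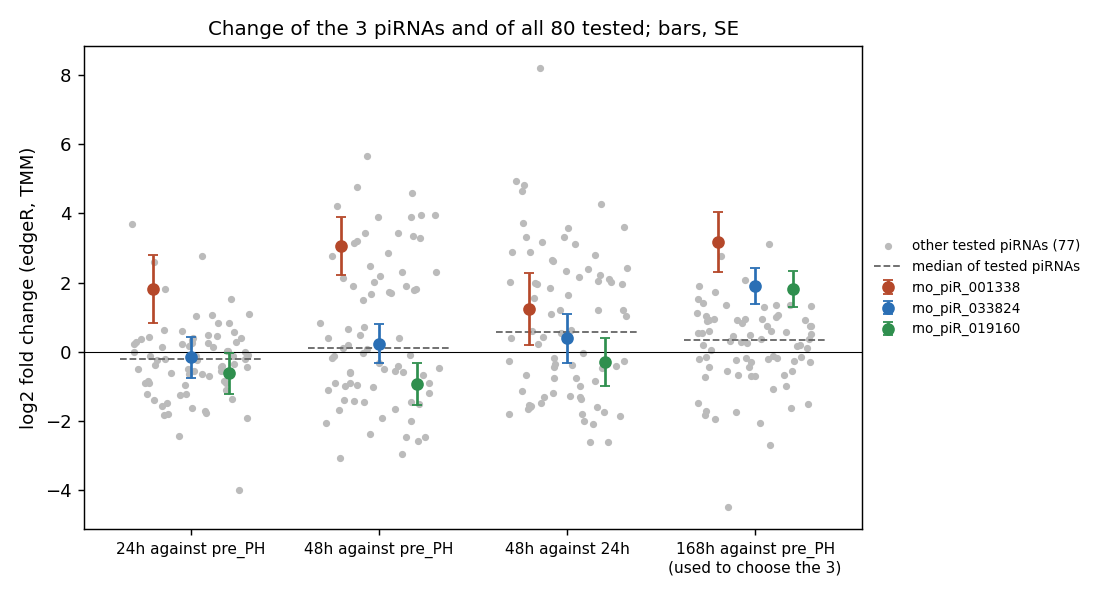
log2 fold changes of the 3 piRNAs (coloured, bars show SE) and of the other 77 tested piRNAs (grey), with the median of all 80 dashed, for 4 comparisons. The 168h column chose the 3 piRNAs and is a description; in the others the adjusted p was under 0.05 only for rno_piR_001338 at 48h, which shares its sham libraries with the comparison that chose it.

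None of the 3 passed in the step from 24h to 48h, which compares neither of the groups that chose them. The sham and 168h libraries still entered the count filter, scaling and dispersion of the joint fit. Without the 48h and 168h libraries rno_piR_001338 did not pass that filter. Its value in this step is therefore not independent of its high 48h reads. Here 17.5% of the 80 piRNAs tested were called (12 higher and 2 lower, 34 at an unadjusted p under 0.05; DESeq2 called 31), with a median log2 fold change of 0.57 over all 80. For rno_piR_001338 the log2 fold change was 1.23 ± 1.05 (SE, 95% interval -0.95 to 3.42, edgeR adjusted p = 0.369). For rno_piR_033824 it was 0.39 ± 0.71 (interval -1.08 to 1.85, edgeR adjusted p = 0.683). For rno_piR_019160 it was -0.30 ± 0.70 (interval -1.74 to 1.143, edgeR adjusted p = 0.742), and this sign turned with scaling to library totals (0.66 ± 0.59). Fitted on the 24h and 48h libraries alone, with 75 piRNAs tested, the values were 0.90 ± 0.85 for rno_piR_001338 (edgeR adjusted p = 0.395), 0.088 ± 0.68 for rno_piR_033824 (adjusted p = 0.921) and -0.57 ± 0.73 for rno_piR_019160 (adjusted p = 0.499). In the joint fit they moved with libraries of the other groups. Without 168h replicate 1, with the filter applied again, they were 0.0998, -0.70 and -1.38, and without pre_PH replicate 6 they were 0.49, -0.26 and -1.01, none of them called. In RPM of library reads both 48h libraries were above both 24h libraries for all 3, which was so for 60% of the 80 tested. Scaled to library totals none of the 3 passed (edgeR adjusted p = 0.0961 for rno_piR_001338, 0.0579 for rno_piR_033824 and 0.414 for rno_piR_019160).

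Between the 2 scalings that gave rno_piR_019160 opposite signs, the median of all piRNAs differed as well. The median log2 fold change from 24h to 48h over the 80 tested was 0.57 with TMM and 1.66 with the authors' library totals, and relative to it rno_piR_019160 stood at -0.87 and -0.99. Over 32 alternatives it stood at -2.455 to 0.125 relative to the median of each fit. The cause of the change in sign was not tested. At 168h against pre_PH, leaving out a library moved the median of all piRNAs to as low as -0.61 (without pre_PH replicate 4), where the log2 fold changes were 0.79 for rno_piR_019160 and 0.91 for rno_piR_033824. With the same 80 piRNAs tested, both stood at 0.89 to 0.91 without 24h replicate 2, 48h replicate 1 or 48h replicate 2, and at 1.28 and 0.91 without 168h replicate 1. Relative to the median of each fit, rno_piR_019160 at 168h stood at 1.48 in the reported fit and at 0.46 to 1.94 over 33 alternatives. For rno_piR_033824 the corresponding values were 1.58 and 1.06 to 1.93. Those for rno_piR_001338 were 2.84 and 2.60 to 6.29 over 32 alternatives. Each fit without a pre_PH library is counted in these numbers under both filter rules, with the same values. The values of 0.46, 1.06 and 6.29 came from the fit with a replicate block. Without that fit and the one with no filter on low counts the ranges were 1.24 to 1.68, 1.139 to 1.84 and 2.60 to 3.98. All these fits reuse libraries that chose the 3 piRNAs, so the ranges are a description and no independent evidence of a rise.

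**Figure D3:**
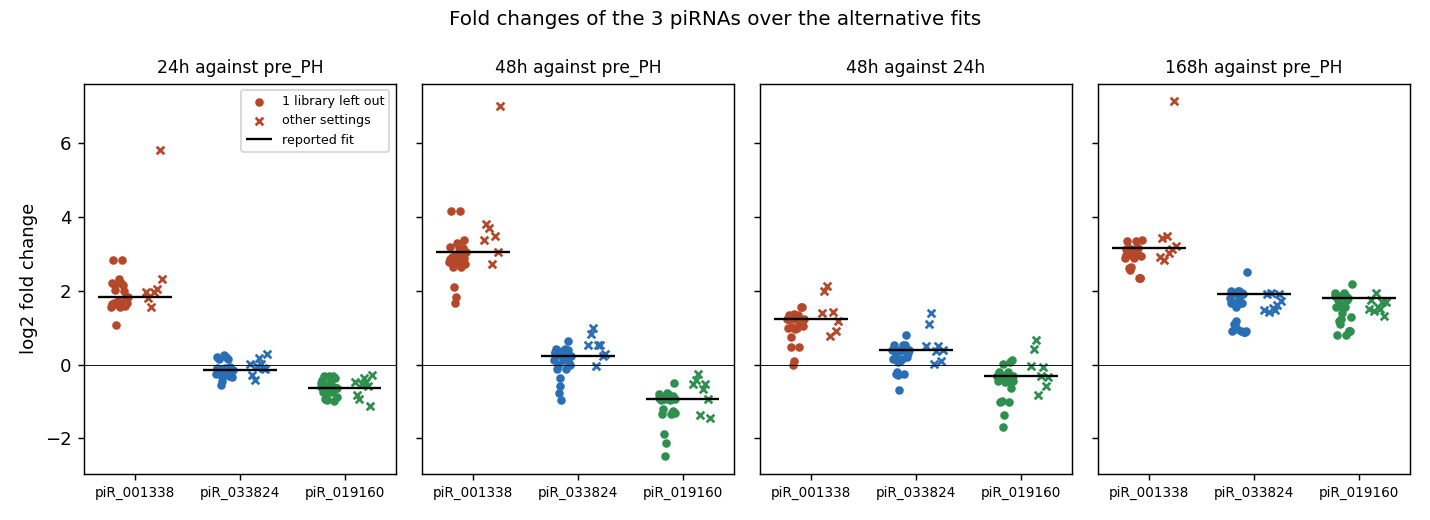
log2 fold changes of the 3 piRNAs in each comparison under the alternative fits: points, 1 library left out (with the filter applied again or the same 80 piRNAs tested); crosses, other settings; line, the reported value. All values at 168h are above 0, the lowest being 0.79 for rno_piR_019160. That comparison chose the 3 piRNAs and the fits reuse its libraries, so the 168h signs are a description. The values of rno_piR_033824 at 24h and 48h lie on both sides of 0.

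The deposited tables also count how many different read sequences stand behind a name, and rno_piR_019160 had few of them for its reads. In every library 3, 4 or 5 distinct sequences made up its reads, whether these were 157 or 1129. At 168h it had 3 and 4 distinct sequences, giving 376 and 277 reads per distinct sequence, against 31.4 to 176 in pre_PH, 56.0 and 33.2 at 24h, and 101 and 95.3 at 48h. Its higher read count at 168h thus came with no more distinct sequences than the 3 to 5 found in pre_PH. Of the 10 other piRNAs nearest to it in total reads, with 3207 to 14345 reads each, none had fewer distinct sequences, their medians over libraries running from 6 to 96 against 3.5.

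For rno_piR_033824 the distinct sequences numbered 5 to 11 in pre_PH, 7 and 7 at 24h, 10 and 11 at 48h, and 15 and 10 at 168h, with 2.75 to 8.09 reads each over all libraries. Its median of 9 was close to that of the 10 nearest piRNAs by reads (9.75, range 4 to 19.5). For rno_piR_001338 there were 8 and 11 distinct sequences among the 21 and 24 reads at 48h, and 3 and 6 among the 12 and 16 reads at 168h. In pre_PH, replicate 4 had 2 sequences among its 6 reads. For these 2 piRNAs distinct sequences tended to rise with reads, so the numbers are not compared between groups by a test.

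**Figure D4:**
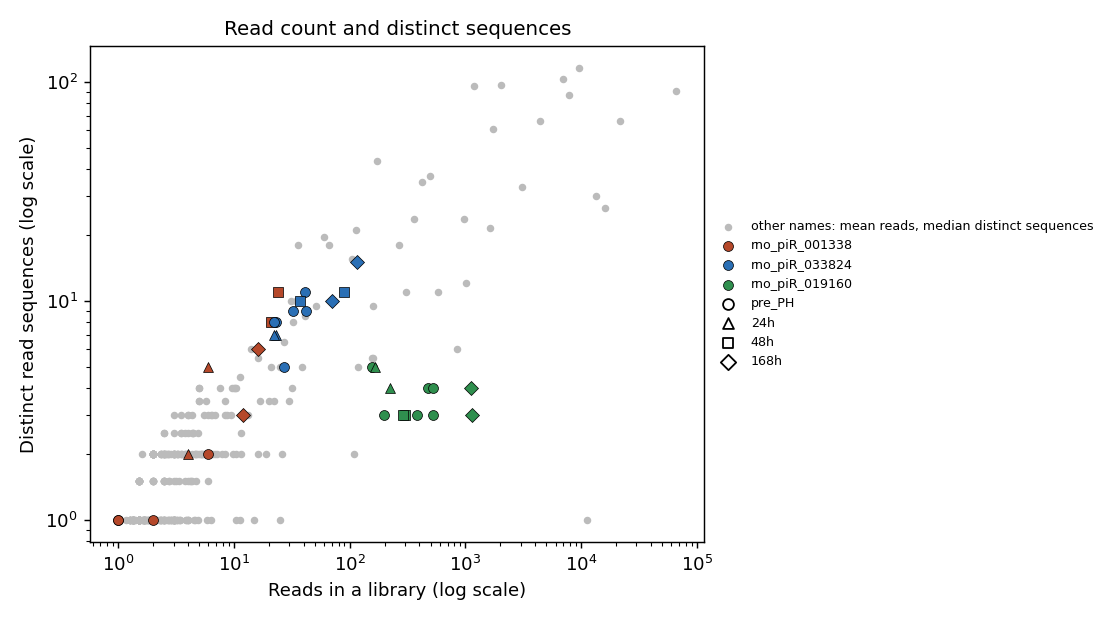
Reads and distinct read sequences on log axes, each library a point for the 3 piRNAs (shape gives the group), with the other listed names in grey as mean reads and median distinct sequences over the libraries that list them. The points of rno_piR_019160 form a flat row at 3 to 5 sequences from 157 to 1129 reads, while those of rno_piR_033824 and rno_piR_001338 climb with reads among the grey points.

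The 3 piRNAs did not follow one pattern over the 12 libraries. As a measure of likeness, Spearman's rho of log2 normalised CPM was 0.56 between rno_piR_033824 and rno_piR_019160, 0.45 between rno_piR_001338 and rno_piR_033824, and -0.039 between rno_piR_001338 and rno_piR_019160. These values include the 168h libraries that chose them and share each library's scaling. Among the 79 other tested piRNAs, the nearest to rno_piR_019160 were rno_piR_000746 and rno_piR_002302 (rho 0.78 each). Both had their lowest mean at 48h and their highest at 168h, rno_piR_002302 with 48.3 ± 9.41 and 574 ± 212 CPM (n = 2 each). Nearest to rno_piR_033824 were rno_piR_007198 (0.84) and rno_piR_005593 (0.80), the latter with 1421 ± 782 CPM at 168h and 732 ± 179 in pre_PH (n = 6). Nearest to rno_piR_001338 were rno_piR_004937 (0.75), which peaked at 48h with 940 ± 675 CPM against 167 ± 29.4 at 168h, and rno_piR_013244 (0.72), at 73.0 ± 52.2 and 73.1 ± 29.5 CPM. By rho, at least 10 other piRNAs were closer to each of the 3 than either of the remaining 2. The best placed of these was rno_piR_019160 at rank 11 for rno_piR_033824. The order depends on the measure. Pearson's r on the same values was 0.76 between rno_piR_033824 and rno_piR_019160, against 0.59 for rno_piR_007198 and 0.81 for rno_piR_005593. Between rno_piR_001338 and the other 2 members it was 0.47 (rno_piR_033824) and 0.0043 (rno_piR_019160).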

How the data were processed

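Small RNA libraries were sequenced from rat liver. The authors deposited, per library, a read count for each piRNA name and a count of its distinct read sequences; per the file headers neither is normalized. Per the file headers, the authors' percent columns set each read count against the whole library and against its piRNA-mapped part. The first gave the library total, and listed reads were 99.2 to 99.9% of those mapped. The tools in the submitters' processing notes, roles unstated, are CASAVA 1.8, DESeq 1.14.0 and cutadapt, and the build is rn4. Aligner, mismatches and handling of multiply matching reads are likewise not given in the sources used here. Entries of similar sequence may therefore share reads. Sequences and genome positions were not analysed here.

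Unlisted names were taken as 0. The test was edgeR's robust quasi-likelihood F-test (edgeR 4.0.16, R 4.3.3, TMM, filterByExpr) in 1 fit of 12 libraries and 4 groups. Calls were made at a Benjamini-Hochberg adjusted p under 0.05 over all piRNAs tested. The test was also run on simulated data with as many names raised as lowered, an outcome not reported here. That setting does not cover an uneven change such as the one called at 48h. TMM factors lay between 0.480 and 1.51, and the common biological coefficient of variation between libraries was 0.591. SE is the log2 fold change over the square root of F. No replicate pair of 18 agreed within sampling noise (chi-square tests). Alternatives changed the scaling, the filter, the test (DESeq2 1.42.0), the groups fitted, the replicate block and the libraries; leaving out both 48h libraries, and leaving out single libraries with the tested set fixed, were chosen after seeing the data. The members and comparisons were chosen with earlier results of these data known. Named besides the members are the 2 most alike piRNAs of each, the others called at 168h and the next outside that threshold.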

Additional observations from a re-analysis of the deposited data

Results flagged for a closer look

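One sham library stood apart for rno_piR_001338. In pre_PH replicate 4 its level was 38.1 normalised CPM, from 6 reads, against 0 to 11.5 in the other 5. In RPM of library reads it was 0.243 against 0 to 0.0713. On both scales, which rest on the same reads, the gap to the next library passed Dixon's test for a group of 6. Chance passes that test in about 1 of 20 groups of normal values. Counts of 0 to 6 reads are not such values, so the rate does not hold here. Without that library the log2 fold change of rno_piR_001338 against pre_PH was 2.83 at 24h (edgeR adjusted p = 0.140), 4.17 at 48h (adjusted p = 0.00074) and 3.36 at 168h. Leaving out the highest sham value widens the difference by construction. The sham libraries also served to choose rno_piR_001338, so these values are a description and no independent evidence of a rise. Neither rno_piR_033824 nor rno_piR_019160 had such a library in pre_PH on either scale.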

How the results depend on the processing

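The adjusted p of rno_piR_001338 at 48h, not independent of how it was chosen, was under 0.05 in 28 of 31 alternatives. These hold repeats: each fit without a pre_PH library is counted under both filter rules, although the tested set and the values were the same. The sign turned for rno_piR_033824 at 24h with DESeq2 size factors (0.014), the stricter filter of 10 reads in 6 libraries (0.17), the DESeq2 test (0.015) and without both 48h libraries (0.29), at 48h with no filter (-0.036), and for rno_piR_019160 from 24h to 48h with the piRNA total (0.41) or library total (0.66); the cause was not tested. With 1 library left out, log2 fold changes ran, at 24h, from 1.08 to 2.83 for rno_piR_001338, -0.56 to 0.27 for rno_piR_033824 and -0.99 to -0.31 for rno_piR_019160; at 48h, from 1.68 to 4.17, -0.96 to 0.65 and -2.48 to -0.51; from 24h to 48h, from -0.019 to 1.57, -0.70 to 0.80 and -1.68 to 0.12; and at 168h, from 2.35 to 3.38, 0.89 to 2.50 and 0.79 to 2.18, the lone library of a time being assumed to vary like the other groups. The numbers of piRNAs called then ran from 0 to 5 at 24h (reported 2), 19 to 52 at 48h (37), 1 to 29 from 24h to 48h (14) and 0 to 6 at 168h (5), with up to 108 piRNAs passing the filter. Other settings gave, at 24h, 1 with the piRNA total, no filter, the stricter filter, the replicate block or without the 48h libraries, 4 with DESeq2 and 5 with library totals; at 48h, 16 with the stricter filter; from 24h to 48h, 27 with DESeq2 size factors or only 2 groups, 26 with the piRNA total, 33 with library totals, 31 with DESeq2 and 3 with no filter; and at 168h, 2 with the piRNA total, 0 with library totals (14 at an unadjusted p under 0.05; DESeq2 6), 3 with no filter, 8 with only 2 groups and 0 with the replicate block. Under the stricter filter, and at 24h with 2 groups, rno_piR_001338 was not tested.

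Whether the replicate numbers pair the libraries is not settled. Same-numbered deviations from the group mean correlated at -0.27 to 0.30, over 0.1 in 3 of 12 cases. Between groups of 2 libraries both numbers give the same correlation by construction, so the 12 are not separate and cannot decide it. With the replicate block, only pre_PH replicates 1 and 2 are compared. There rno_piR_001338, at 0 reads in both, gave 7.00 at 48h (edgeR adjusted p = 0.00684), a size that depends on the prior count. No member call changed with the block at 24h, at 48h or from 24h to 48h. In the comparison of the last time with pre_PH, which chose the 3 piRNAs, the block left no piRNA called. The edgeR adjusted p there was 0.0531 for rno_piR_001338, 0.240 for rno_piR_033824 and 0.363 for rno_piR_019160. Depth limits rno_piR_001338 most, at 24 reads or fewer per library.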
